A study of Mus musculus with 4 samples.

Results

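The genes described here are 10 regulators of microtubules out of 32285 genes counted in the files: the doublecortin family genes Dcx, Dclk1 and Dclk2, the microtubule-associated protein (MAP) genes Map1b, Map2 and Mapt, and the stathmin genes Stmn1, Stmn2, Stmn3 and Stmn4. They were taken by symbol from the gene table of the files, and all 10 passed the filter on low counts in every comparison. Microtubules carry traffic inside neurons and give growing axons, dendrites and leading processes their shape. Doublecortins and MAPs bind along the microtubule wall and stabilise or bundle it, whereas stathmins bind free tubulin or microtubule ends and promote turnover. DCX is widely used to mark migrating and newly born neurons, and MAP2 and tau, the product of Mapt, are classical markers of dendrites and axons of mature neurons.

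Single-cell RNA-seq with droplets from 10x Genomics was used to profile the medial ganglionic eminence (MGE), a zone of the ventral embryonic forebrain that gives rise to cortical interneurons and to neurons of the globus pallidus. The E14.5 embryos had a mixed C57/BL6 ICR background, and 2 libraries were labelled St18(-/-), called null here, and 2 wild type (WT). The null allele came from a conditional allele recombined in the germline, so that all cells of the embryo carry it, and null and WT (+/+) embryos of heterozygous parents, typed by PCR, had their MGE pooled within a genotype. The study calls the libraries of a genotype biological replicates, and how many embryos went into a pool, and of which sex, was not stated.

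The libraries held between 70991150 and 92984713 unique molecular identifiers (UMIs), and 3682 to 6194 cells of each were used, 17951 in all, with median depths of 6119 to 9187 UMIs per cell, deepest in null replicate 2. Any pair of libraries shared 4 to 11 cell barcodes. In lists of 4 values, the order is null replicates 1 and 2, then WT replicates 1 and 2. St18 was checked first and did not follow the labels: in the middle of the axis described below its level was 35.4, 108, 67 and 83.4 CPM, the UMIs of a gene scaled to 1000000 UMIs in all. The library labelled null replicate 2 was the highest of the 4, and the genotypes overlapped in all parts of the axis. The deletion removes only part of the gene, so reads from the rest of the transcript can remain and this check cannot decide the label. The MGE transcription factor gene Nkx2-1 was found at 377 to 417 CPM in progenitors and Lhx6 at 332 to 489 CPM in neurons of the 4 libraries.

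To see when each gene comes on, cells were ordered from progenitor to neuron by a score over 10 neuron markers such as Tubb3 and Gap43 minus 10 progenitor markers such as Vim and Nes, none of them among the 10 genes. The ordered cells were cut into 10 stages in which each library had equal weight, with 320 to 708 cells per library and stage. Stages 1 to 3 are called the progenitor range, 4 to 6 the middle range and 7 to 10 the neuron range. These are ranges of a score and not cell types, and 6.72% and 10.3% of the cells lay within 0.1 score units of the limits between ranges. Along the axis the marker of proliferation Mki67 went from 633 ± 205 CPM in stage 1 to 27.4 ± 13.7 CPM in stage 10 (mean ± SD, n = 4 libraries), while Tubb3 went from 148 ± 22.8 to 2171 ± 309 CPM. The stages were drawn from other genes of the same cells, so differences along them describe the axis and are not an independent test of maturation.

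Promoter sequence from RefSeq (GRCm38.p6), 250 bases before to 50 bases after a start site, was held for 6 of the 10 genes. Those of Dclk2 and Dcx are shown because these genes rose early and then parted, Dclk2 falling in neurons in which Dcx stayed high. Dcx lies on the minus strand of chromosome X (143855842 to 143933311, GRCm38) and its window at chrX:143933170-143933469 spans the end of the gene at which transcription starts. Dclk2 lies on the minus strand of chromosome 3 (86786151 to 86920852) with its window at chr3:86920835-86921134. Both are written 5′ to 3′ on the gene's own strand, with capitals marking the letters TAATTA, the core that many homeodomain factors read.
Dcx: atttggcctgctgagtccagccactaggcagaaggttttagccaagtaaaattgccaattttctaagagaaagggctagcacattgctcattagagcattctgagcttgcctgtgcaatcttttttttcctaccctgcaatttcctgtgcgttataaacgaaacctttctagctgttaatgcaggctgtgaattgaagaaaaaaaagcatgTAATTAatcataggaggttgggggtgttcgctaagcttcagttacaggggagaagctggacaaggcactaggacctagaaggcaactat
Dclk2: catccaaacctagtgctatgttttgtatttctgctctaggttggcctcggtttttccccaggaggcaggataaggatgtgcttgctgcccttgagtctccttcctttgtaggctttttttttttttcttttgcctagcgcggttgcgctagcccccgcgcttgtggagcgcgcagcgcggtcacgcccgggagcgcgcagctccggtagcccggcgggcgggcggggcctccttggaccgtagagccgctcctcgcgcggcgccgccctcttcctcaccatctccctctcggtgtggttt
The GC content was 43.00% in the Dcx window and 61.33% in that of Dclk2. TAATTA, which reads the same on both strands, began 39 bases before the start site of the Dcx window, and was found in 5.29% of all 32851 promoter windows of this length. It was also in a second, overlapping Dcx window and in none of the other 6 windows held for these genes. This is a match of letters and does not show binding.

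The other 8 genes lie on 7 chromosomes in GRCm38. Dclk1 (55242364 to 55539068) and Stmn2 (8509360 to 8561606) are on the plus strand of chromosome 3, which also holds Dclk2. Map2 lies on chromosome 1 (66175273 to 66442583), Stmn1 on 4 (134468320 to 134473843), Mapt on 11 (104231390 to 104332090) and Stmn4 on 14 (66344296 to 66361680), all on the plus strand. Stmn3 on chromosome 2 (181306459 to 181314500) and Map1b on 13 (99421446 to 99516540) are on the minus strand.

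All 10 genes rose at least 2-fold from stage 1 to their highest stage in all 4 libraries, which 15.9% of 6478 genes with a mean of at least 20 CPM did. The time of the rise was taken as the midpoint position, the percent of cells along the axis at which the level first reached the middle between stage 1 and the highest later stage. In the mean over libraries the order was Stmn1, Dclk2, Dcx, Map2, Dclk1, Map1b, Stmn3, Stmn2, Stmn4 and Mapt. Stmn1 reached its midpoint at 21.8 ± 1.47% of the axis, Dcx at 37.8 ± 1.70% and Mapt at 82.4 ± 2.41% (SD, n = 4). Over all 1032 genes that rose in this way the middle 50% of positions lay between 32.7% and 67.2%, so that Stmn1 and Dclk2 came before this span and Stmn2, Stmn4 and Mapt after it.

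**Figure D1:**
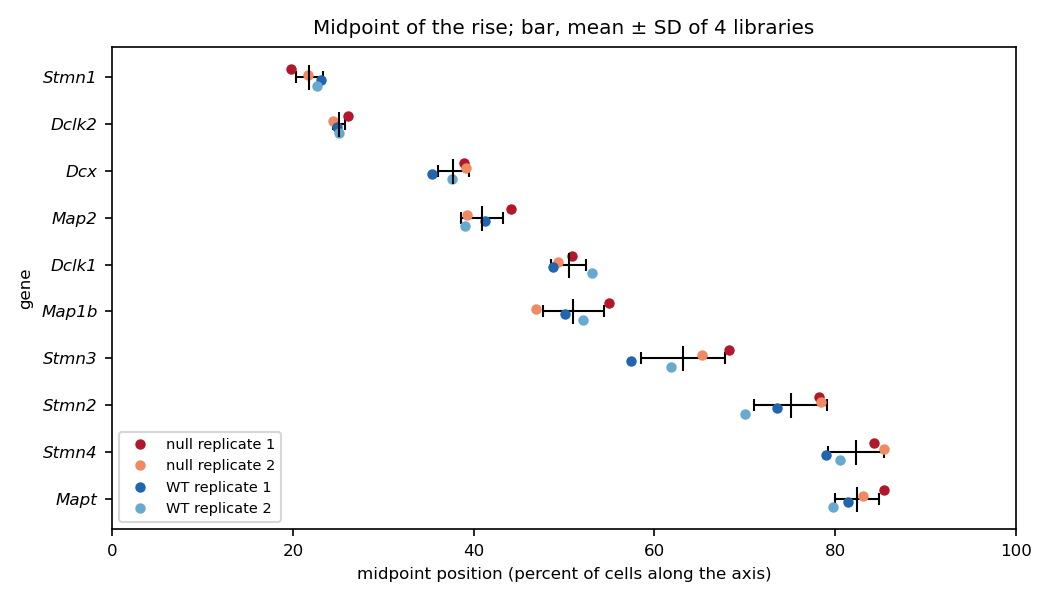
Midpoint position of each gene in percent of cells along the axis (horizontal axis) for each of the 4 libraries (points), with the mean and SD over libraries (vertical tick and bar). The genes run from Stmn1 and Dclk2 at 21.8% and 25.1% to Stmn4 and Mapt at 82.3% and 82.4%, and the bars of the neighbours Dcx and Map2, Dclk1 and Map1b, and Stmn4 and Mapt overlap.

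Of the 9 neighbouring pairs of this order, 7 held in all 4 libraries. Stmn1 came before Dclk2 by 3.30 ± 2.02% of the axis, Dcx before Map2 by 3.19 ± 2.79%, and Stmn2 before Stmn4 by 7.25 ± 2.25% (SD of the difference, n = 4). The pair Dclk1 and Map1b was in this order in 2 of 4 libraries, with a difference of 0.50 ± 2.81%, and the pair Stmn4 and Mapt in 2 of 4 with 0.11 ± 2.09%. These neighbours did not differ beyond their spread. Of the 45 pairs of genes, 45, 43, 45 and 43 were in the mean order in the 4 libraries. Stmn1 and Dclk2 exchanged places when the axis used the neuron markers or the progenitor markers alone. On an axis from the first principal component of other variable genes Dclk2 came first as well. There Stmn1 rose 2-fold in 0 of 4 libraries, by 1.63 to 1.73-fold, and its midpoint moved to between 71.2% and 81.1%, after Stmn3 and before Stmn2.

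The 3 doublecortin family genes came on at different times. Dcx, which encodes the founding member of the family, had 40.5, 42.6, 29.2 and 39.4 CPM in stage 1 and 957, 1214, 869 and 796 CPM in stage 9. All libraries were low at the start and high at the end, with a mean rise of 25.7 ± 4.17-fold. Dclk2, which encodes a doublecortin-like kinase, had 51.2, 59.2, 34.2 and 44.0 CPM in stage 1, then 466, 529, 393 and 392 CPM in stage 6. In stage 10 it was back at 184, 192, 146 and 139 CPM, a fall from the highest stage of 63.0 ± 1.70% on average. It kept 0.35 to 0.39 of its highest level in the 4 libraries, and 0.42 to 0.51 when cells with markers of the pallium or of the lateral or caudal ganglionic eminence (LGE, CGE) were left out. No other gene of the 10 fell so far, the next being Map2 and Dcx at 8.83 ± 3.35% and 8.78 ± 7.34%. Dclk1, the other kinase of the family, had 129, 128, 96.0 and 102 CPM in stage 1 and climbed to 488, 520, 418 and 433 CPM in stage 10. The Dclk1 midpoint at 50.5 ± 1.96% lay 12.8 ± 2.26% of the axis after that of Dcx, and later in all 4 libraries. Antisense genes overlap exons of Dclk1 and Map2 and the strand of counting is not given in the sources used here, so reads of those partners may be included.

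**Figure D2:**
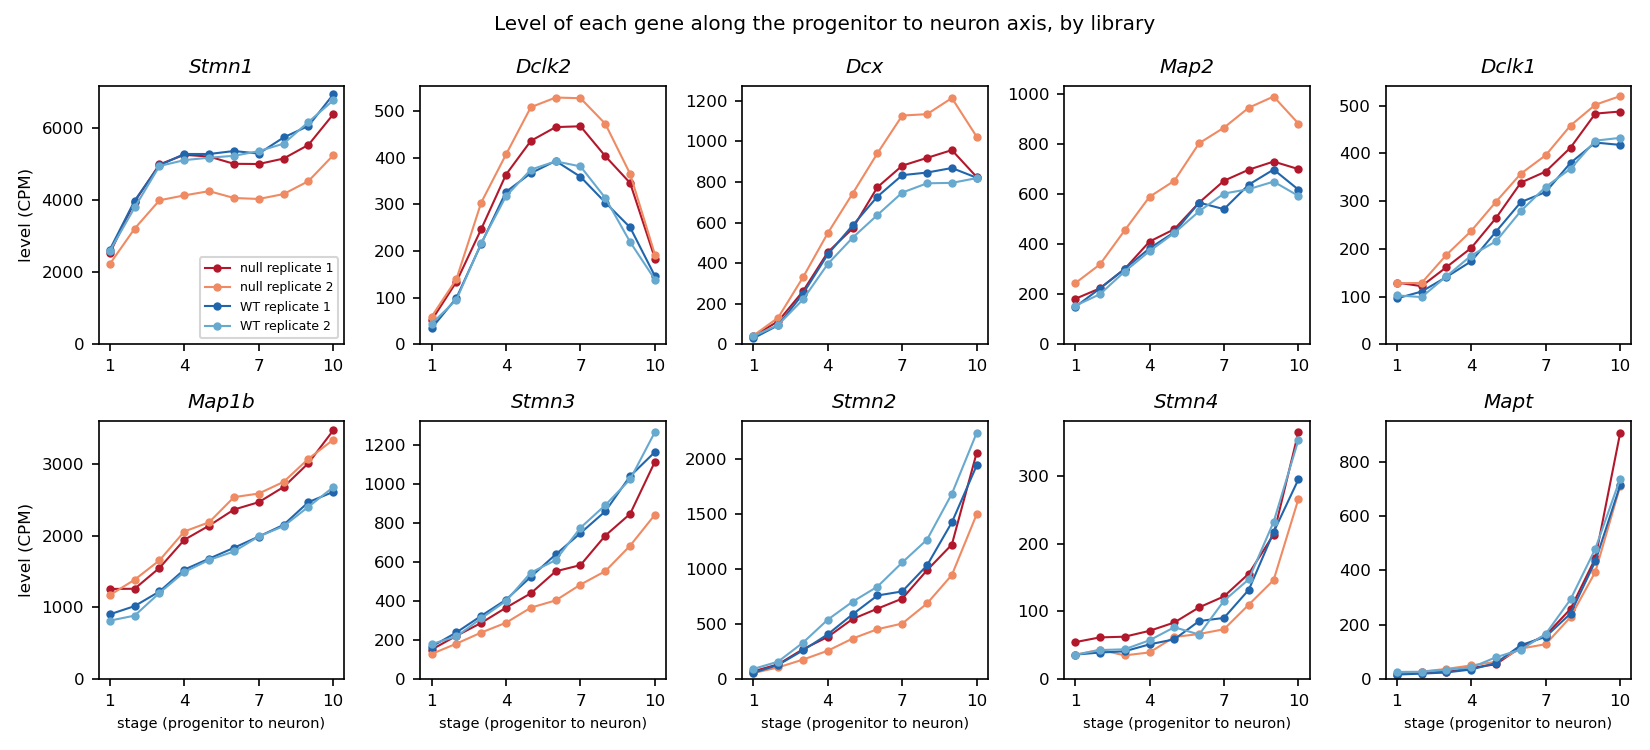
Level of each gene in CPM (vertical axis, a scale of its own in each panel, starting at 0) over the 10 stages (horizontal axis), with 1 line per library. Dclk2 climbs to 445 CPM on average in stage 6 and returns to 165 CPM in stage 10, Dcx and Map2 level off, and Mapt and Stmn4 stay low until the last stages.

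Among the MAPs, Map2 rose first. Its level was 181, 243, 148 and 153 CPM in stage 1 and 729, 989, 698 and 649 CPM in stage 9, with a midpoint at 40.9 ± 2.34%. Map1b, which encodes a MAP of growing axons, was already at 1259, 1173, 904 and 816 CPM in stage 1. It rose without a plateau to 3474, 3342, 2614 and 2680 CPM in stage 10, a rise of 2.95 ± 0.23-fold, and a UMI of it was found in 89.3 ± 3.08% of stage 1 cells after each cell was thinned to 3000 UMIs. Mapt was the opposite case. It had 19.9, 16.4, 16.7 and 26.3 CPM in stage 1 and was still at 117, 112, 125 and 109 CPM in stage 6, then reached 907, 710, 714 and 738 CPM in stage 10. The rise of Mapt was 39.9 ± 7.94-fold, with the larger part in the last stages.

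The stathmins were spread over the whole axis. Stmn1, the ubiquitous member, was at 2522, 2224, 2623 and 2585 CPM in stage 1 and at 4983, 3989, 4958 and 4938 CPM by stage 3. A plateau followed, and then a second climb to 6370, 5236, 6920 and 6756 CPM in stage 10. Stmn3 had 151, 129, 167 and 180 CPM in stage 1 and 1117, 845, 1166 and 1269 CPM in stage 10, with its midpoint at 63.2 ± 4.65%. Stmn2, which encodes the growth cone protein SCG10, rose from 70.7, 55.2, 56.0 and 91.9 CPM to 2061, 1500, 1944 and 2241 CPM. Its midpoint lay at 75.1 ± 4.03% of the axis, 53.2 ± 5.20% after that of Stmn1. Stmn4, a neuronal stathmin bound to membranes, went from 54.6, 35.9, 36.2 and 35.8 CPM to 365, 266, 296 and 354 CPM, most of it in stages 9 and 10.

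The share of cells with a UMI depends on the level of a gene as well as on its timing, and its order differed from that of the midpoints. With each cell thinned to 3000 UMIs, the first stage with at least 50% of cells in every library was 1 for Stmn1 and Map1b, 3 for Map2 and Stmn3, 4 for Dcx and Dclk2, 5 for Stmn2, 6 for Dclk1 and 9 for Mapt. Stmn4 never reached it, with 54.4 ± 7.16% in stage 10 but not 50% in every library. Microglia and erythroid cells, which should lack the neuronal genes among the 10, served as background: Dcx was found in 15.8% of 76 microglia (exact 95% interval 8.43 to 26.0%) and in 9.30% of 172 erythroid cells, with median depths of 9270 and 11530 UMIs. In stage 1 the shares were 10.5 ± 2.64% for Dcx, 6.04 ± 1.59% for Mapt and 19.1 ± 3.51% for Stmn2, and those for Mapt and Stmn2 in microglia were 10.5% and 30.3%. The stage 1 shares of these 3 genes were thus within or below the intervals of the microglia. Free RNA, estimated from globin UMIs in neural cells, came to less, 2.74 to 4.97 CPM for Dcx, 1.18 to 2.39 CPM for Mapt and 7.58 to 13.2 CPM for Stmn2. With it subtracted, Dcx kept 25.8 to 39.4 CPM in stage 1. These measures give different backgrounds, the part of doublets in the microglia and erythroid cells was not tested, and no expression in stage 1 is read from either. Dcx passed the upper bound of the microglia in all libraries from stage 3, Stmn2 from stage 4 and Mapt from stage 6. Dclk1, Map1b, Map2 and Stmn3 were above theirs from stage 1. Stmn1 is not confined to neurons and was found in 78.9% of microglia, which are no background for it.

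The quasi-likelihood test of edgeR was then run on UMIs summed per library and range, with library as a block and Benjamini-Hochberg adjustment over 13891 genes. From the progenitor to the middle range, 10 of the 10 genes rose, where 33.8% of all genes tested were higher and 68.7% differed in either direction. Their median log2 change was 1.07, beside 0.0084 over all genes. The steepest was Dcx with 2.23 (SE 0.035, adjusted p = 1.80e-23), followed by Stmn2 with 1.85 and Dclk2 with 1.65. From the middle to the neuron range 9 rose, where 31.3% of all genes were higher and 62.1% differed in either direction. Here Mapt led with a log2 change of 2.51 (SE 0.059, adjusted p = 3.97e-20), before Stmn4 with 1.48 and Stmn2 with 1.24. Dclk2 fell by 0.42 on the log2 scale (SE 0.040, adjusted p = 3.69e-09), among 30.9% of genes that were lower. Its log2 change was -0.22 without cells with pallial, LGE or CGE markers and -0.19 in cells with at least 6000 UMIs, and it was called in both. The smallest rise was that of Stmn1, 0.12, which was not called once cells with pallial, LGE or CGE markers were left out (log2 change 0.04, adjusted p = 0.255).

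Other regulators of microtubules gave a mixed picture. Of a list of 35, 23 were higher, 8 lower and 4 not called in the first step, and 24 higher, 7 lower and 4 not called in the second, with median log2 changes of 0.36 and 0.27. Among the largest rises was Mapre3, which encodes a plus-end binding protein, with a log2 change of 1.26 in the first step and 1.27 in the second. Crmp1 and Dpysl3, of the collapsin response mediator family, rose by 1.17 and 0.99 in the first step, as did Clip2 by 1.21. Map6, which stabilises microtubules against cold, rose by 1.74 in the second, with Map7 by 1.36. The largest falls of the second step were those of the spindle assembly gene Tpx2 with a log2 change of -2.55, of Prc1, which encodes a cross-linker of the spindle midzone, with -2.47 and of Nde1 with -2.33. Tpx2, Prc1 and Nde1 had fallen in the first step by 0.33, 0.54 and 0.88 on the log2 scale as well, along with Tppp3 by 1.09. Map7d2 fell by 0.80 and then rose by 1.68. Map1a, which encodes a MAP of mature neurons, fell in both steps, by 0.31 and 0.88.

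Dividing cells were compared with others within a range, because their share changed along the axis. It lay between 72.5% and 77.9% in stage 1, between 80.8% and 87.4% in stage 2 and between 11.3% and 16.5% in stage 10. A cell with at least 2 UMIs of 8 mitotic markers was called dividing, and it was set against cells with none. This gate counts RNA and does not show that a cell was in division. In the middle range Stmn1 was at 5357, 4329, 5502 and 5416 CPM in dividing cells and at 4783, 3722, 5033 and 4763 CPM in the others. It was higher in dividing cells in 4 of 4 libraries, by a ratio of 1.13 ± 0.03 (SD, n = 4). The other 9 genes were lower in dividing cells in 4 of 4. How many of all genes were lower in dividing cells in 4 of 4 libraries was not counted. The share of dividing cells went down within the middle range, from between 63.8% and 72.1% in stage 4 to between 33.6% and 43.3% in stage 6. Within each of stages 4, 5 and 6 taken alone the 9 genes were again lower in 4 of 4, except Stmn4 in stage 4, which was lower in 3. Dcx had a ratio of 0.57 ± 0.01, with 468, 581, 418 and 381 CPM in dividing cells against 803, 1015, 754 and 676 CPM. Of these 9 genes Mapt had the lowest ratio, 0.39 ± 0.06, and Map1b the one nearest to 1 with 0.83 ± 0.02. In the progenitor range the Stmn1 ratio was 1.31 ± 0.05, again above 1 in 4 of 4 libraries and in each of stages 1 to 6. Over the progenitor range as a whole Dcx, Map2, Stmn2 and Stmn3 were lower in dividing cells in 4 of 4 libraries. Their ratios were 0.70 ± 0.12, 0.80 ± 0.09, 0.79 ± 0.09 and 0.90 ± 0.10, and the other 5 genes did not have 1 direction. For these 4 genes the direction held in all libraries within stage 3 but not within each stage. In stage 2 Dcx, Stmn2 and Stmn3 were higher in dividing cells in 2 of 4 libraries and Map2 in 1 of 4. In stage 1 Stmn3 was higher in 1 of 4.

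**Figure D3:**
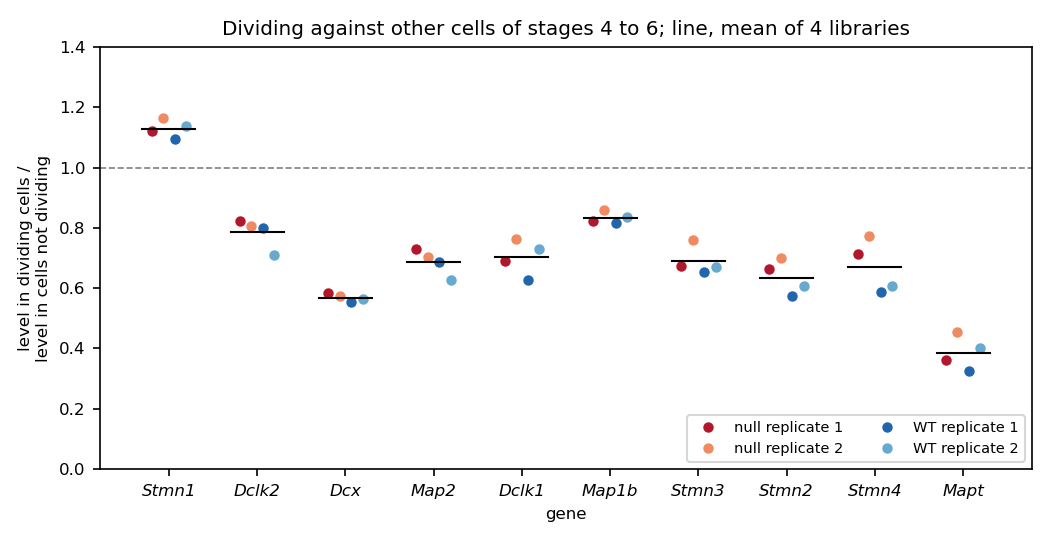
Ratio of each gene's level in dividing cells to that in cells without mitotic markers (vertical axis, linear, from 0) in stages 4 to 6, with 1 point per library and a line at the mean. Stmn1 lies above 1 in all 4 libraries with a mean of 1.13, and the other 9 genes lie below 1, Mapt lowest with a mean of 0.39.

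Neurons of stages 9 and 10 were grouped by markers, with at least 3 UMIs of 1 list and more than of any other: 806 cells with markers of cortical interneurons such as Maf and Cxcr4, 804 with markers of the ventral MGE such as Lhx8 and Zic1, and 608 with markers of the LGE such as Ebf1 and Isl1. Cells with CGE or pallial markers were too few to use, with 10 and 2 in WT replicate 1. Dclk2 differed most between cells with cortical interneuron and with LGE markers. Its level was 447, 413, 337 and 352 CPM in cells with cortical interneuron markers, 252, 264, 183 and 173 CPM with ventral MGE markers and 99.3, 110, 77.4 and 79.9 CPM with LGE markers. The groups did not overlap, and the first stood 4.25 ± 0.33-fold above the third and 1.80 ± 0.19-fold above the second (n = 4).

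Dcx went the same way. It had 1187, 1427, 1150 and 1131 CPM with cortical interneuron markers and 817, 1011, 756 and 719 CPM with ventral MGE markers, a ratio of 1.49 ± 0.07. Map2 and Dclk1 were also higher in cells with cortical interneuron markers than with ventral MGE markers in 4 of 4 libraries, by ratios of 1.13 ± 0.05 and 1.05 ± 0.04. The other 6 genes went the other way. Mapt was at 382, 347, 375 and 359 CPM with cortical interneuron markers against 695, 637, 592 and 660 CPM with ventral MGE markers, a ratio of 0.57 ± 0.04 and lower in 4 of 4. Stmn2 and Stmn4 had ratios of 0.58 ± 0.08 and 0.54 ± 0.04, Stmn3 0.77 ± 0.05, Stmn1 0.84 ± 0.01 and Map1b 0.94 ± 0.02, all lower in 4 of 4. Over the wider span of stages 7 to 10 Map1b was higher with cortical interneuron markers in 3 of 4 libraries, with a ratio of 1.03 ± 0.03. The median score over cells differed as well, 1.01, 1.08 and 1.25 in cells with cortical interneuron, ventral MGE and LGE markers. Its part in these differences was not tested. How many of all genes had 1 direction between these groups in 4 of 4 libraries was not counted.

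**Figure D4:**
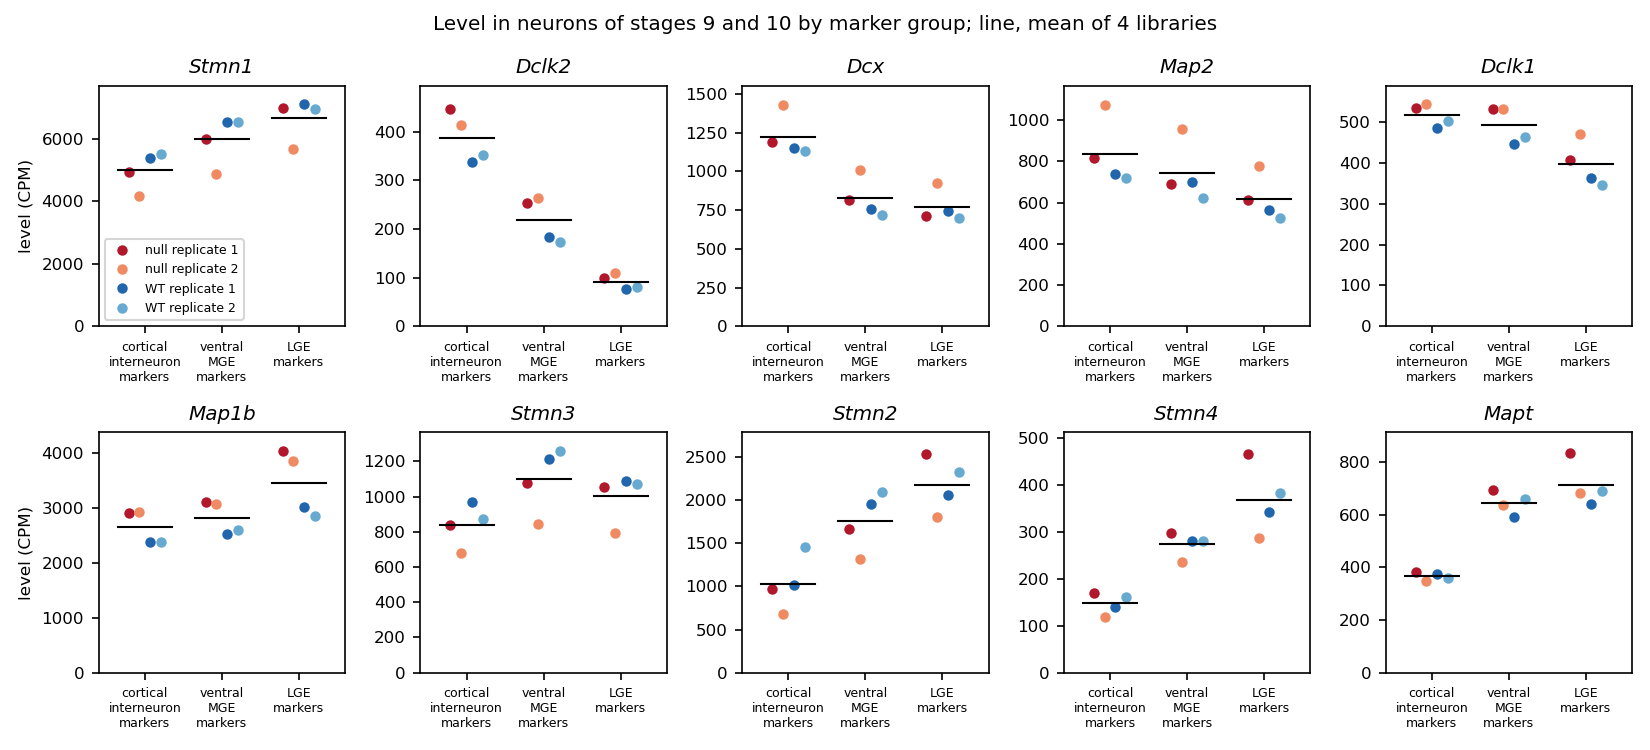
Level of each gene in CPM (vertical axis, from 0, a scale of its own in each panel) in stage 9 and 10 cells with markers of cortical interneurons, the ventral MGE or the LGE, with 1 point per library and a line at the mean. Dclk2 goes from a mean of 387 CPM through 218 CPM to 91.6 CPM over the 3 groups, while Mapt goes from 366 CPM through 646 CPM to 712 CPM.

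The study's main comparison asks what loss of St18 changes in the MGE. Libraries were compared within each range by the same edgeR test without a block. In the progenitor, middle and neuron ranges 0 of the 10 genes were called, where 0.0303%, 0.0878% and 0.404% of 13185, 12530 and 13116 genes were called in either direction. At an unadjusted p under 0.05 there were 2, 2 and 4 of the 10, beside 18.2%, 14.0% and 17.7% of all genes. DESeq2 called 357 of 15367, 188 of 14733 and 272 of 15365 genes in the 3 ranges. Among them were Stmn2 and Stmn3 in the first range, Stmn2 in the second and Stmn3 in the third. Leaving out null replicate 1 gave 7, 9 and 8 calls among 4429, 3630 and 2761 genes called, and leaving out null replicate 2 gave 5, 4 and 2 among 2148, 1504 and 571. Leaving out either WT library gave 0. In each of these fits the lone library is assumed to vary like the other genotype. Genes tested numbered 13433, 12725 and 13155 without null replicate 1 and 13281, 12627 and 13088 without null replicate 2.

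In the neuron range, Stmn3 had 843 and 646 CPM in the null libraries and 947 and 1016 CPM in WT, with a log2 change of -0.53 (SE 0.16, adjusted p = 0.143). Both null libraries lay below both WT libraries, but the 2 null libraries differed by more than the gap between the nearest null and WT libraries. Stmn1 showed the same arrangement, 5569 and 4496 CPM against 5962 and 6029 CPM, with a log2 change of -0.38 (adjusted p = 0.244). Stmn2 was at 1308 and 919 CPM in null and at 1278 and 1625 CPM in WT, and the genotypes overlapped (log2 change -0.51, adjusted p = 0.201). Null replicate 2 was the lowest library for all 3. In the middle range the genotypes did not overlap for Stmn2, the null libraries having 515 and 354 CPM and the WT libraries 569 and 685 CPM (log2 change -0.67, SE 0.20, adjusted p = 0.199). For Dclk2 in the neuron range the null libraries had 339 and 386 CPM and the WT libraries 269 and 251 CPM. The fit gave a log2 change of 0.34 (SE 0.13, adjusted p = 0.199). Over the alternatives tried, the log2 change ran from -0.82 to -0.23 for Stmn2 (adjusted p 6.28e-04 to 0.861), from -0.57 to -0.19 for Stmn1 (8.45e-04 to 0.848) and, in the middle range, from -1.02 to -0.37 for Stmn2 (1.44e-46 to 0.858). For Stmn3 in the neuron range it ran from -0.76 to -0.30. The adjusted p ranged from 1.78e-04 to 0.755 for Stmn3 and from 0.00311 to 0.889 for Dclk2, with no change of direction for either.

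In CPM alone, null and WT did not overlap for 7, 8 and 7 of the 10 genes in the 3 ranges, beside 59.9%, 53.0% and 54.8% of all genes tested. Dcx, Dclk1, Dclk2, Map1b and Map2 were the higher ones in null in each range, and Stmn1 and Stmn3 the lower ones, joined by Stmn2 in the middle range. The shares of the marker groups in the neuron range also differed between libraries, within a genotype as well as between them. Cells with cortical interneuron markers made up 27.2% and 33.8% of it in null and 26.2% and 19.4% in WT, and cells with ventral MGE markers 22.5% and 21.4% in null and 24.0% and 29.6% in WT. The rest were mostly cells in no marker group, 34.7% and 28.1% in null and 37.1% and 39.2% in WT, fewest in null replicate 2. The part of these shares in the genotype values was not tested. Dividing cells, as gated above, made up 72.1% and 70.5% of stage 4 in null and 64.4% and 63.8% in WT. In stage 6 they made up 43.1% and 43.3% in null and 33.6% and 34.8% in WT. In stages 1 and 9 the genotypes overlapped in this share. The part of dividing cells in the genotype values was not tested either. Without null replicate 2 the edgeR log2 changes of Dcx and Map2 in the progenitor range turned to -0.08 and -0.07, and that of Map2 in the middle range to -0.02. Library totals in place of the trimmed mean (TMM) factors of edgeR moved the median of all genes up in null by 0.20, 0.15 and 0.13 on the log2 scale. Dcx lies on the X chromosome, and 33.5% and 69.2% of neuron-range cells of the null libraries had at least 3 UMIs of Xist, against 0 of 1597 and 0 of 1572 in WT, which allows a share of up to 0.188% and 0.191%. Cells with Xist thus moved with genotype, and their part in the values of the other genes was not tested. Within the null libraries Dcx lay close together in cells with and without Xist, with overlapping intervals that cover counting error only. It was at 898 CPM (95% Poisson interval 874 to 923) and 888 CPM (870 to 907) in null replicate 1, and at 1118 CPM (1097 to 1138) and 1145 CPM (1110 to 1180) in null replicate 2.

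**Figure D5:**
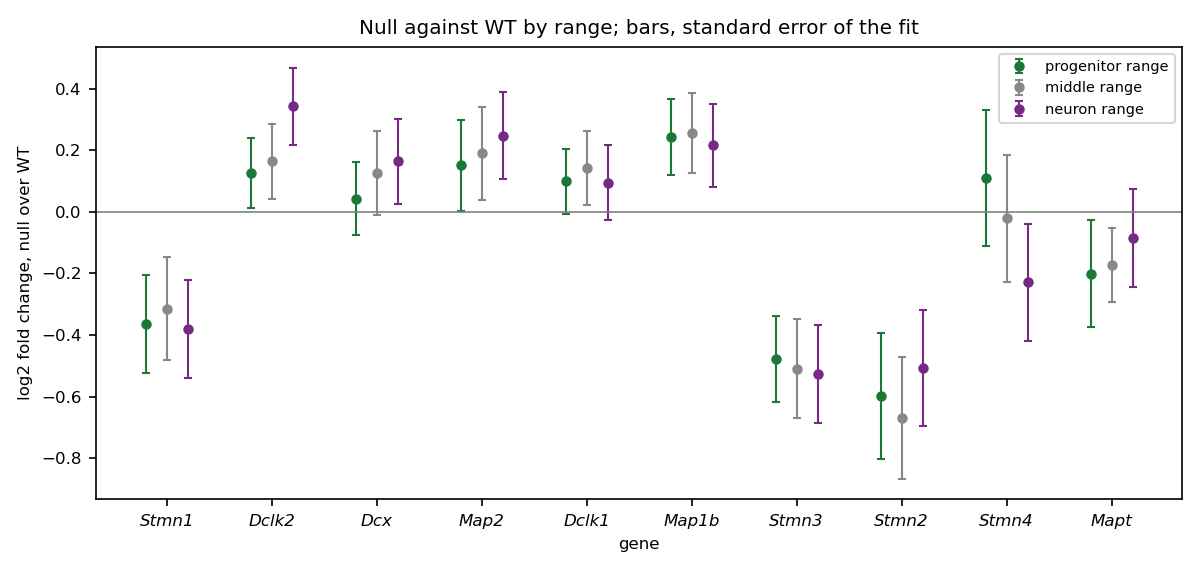
Log2 fold change of null over WT (vertical axis) for each gene in the progenitor, middle and neuron ranges (colours), with the standard error of the edgeR fit. None of the 10 genes was called at an adjusted p of 0.05, with Stmn2 lowest at -0.67 in the middle range and Dclk2 highest at 0.34 in the neuron range.

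Whether the null effect differed between the neuron and the progenitor range was tested in 1 model, which called 95 of 13891 genes (0.684%) and 0 of the 10. At an unadjusted p under 0.05 there were 2, Stmn4 and Dclk2, beside 9.37% of all genes. Stmn4 had a difference in log2 change of -0.34 (SE 0.089, adjusted p = 0.0717), and Dclk2 had 0.19 (adjusted p = 0.282). Without WT replicate 1 both were called by edgeR, with differences of -0.41 (adjusted p = 0.0213) and 0.37 (adjusted p = 0.00549), and without WT replicate 2 the difference of Stmn4 was -0.17 (adjusted p = 0.719). Stmn4 was also called in 6 of the alternatives that keep all libraries and Dclk2 in 2, and with RLE factors neither was. Over all genes these alternatives called from 85 of 13891 (library totals) to 204 of 22389 (no filter on low counts). They reuse the same 4 libraries, so the repeated calls are not separate tests. Over the alternatives the adjusted p ranged from 0.00181 to 0.719 for Stmn4 and from 0.00549 to 0.685 for Dclk2. Of the 35 other regulators, 2 were called in this test, the spindle genes Tpx2 and Prc1. Between genotypes 1 was called by edgeR, Numa1 in the neuron range, higher in null with a log2 change of 0.67 (adjusted p = 0.0478). In the progenitor and middle ranges its change was 0.52 (adjusted p = 0.0826) and 0.51 (adjusted p = 0.126). Its difference between the neuron and the progenitor range was 0.12 (adjusted p = 0.622). These 3 were named after their values were seen.

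The midpoint positions were set side by side as well. For Stmn3 they were 68.2% and 65.2% of the axis in null and 57.4% and 61.8% in WT, for Stmn2 78.2% and 78.4% against 73.5% and 70.1%, and for Stmn4 84.3% and 85.4% against 79.0% and 80.6%. Both null libraries were later than both WT libraries for 5 genes, Dcx and Mapt being the others, and Stmn1 had the opposite arrangement with 19.8% and 21.7% against 23.1% and 22.7%. Of all genes that rose at least 2-fold, 31.5% were later in both null libraries. For the 5 genes the arrangement depended on the axis. With neuron markers only, all 5 stayed later in both null libraries. With progenitor markers only, Dcx turned, at 31.9% and 28.4% in null against 35.8% and 34.8% in WT. On that axis Stmn2 stayed later in null, and the genotypes overlapped for Stmn3, Stmn4 and Mapt. With 2 libraries against 2, an exact two-sided permutation test cannot give a p below 0.333.

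For 4 of the genes, the genes most alike over the 40 points of 10 stages by 4 libraries were sought among 6450 with a mean of at least 20 CPM. The points share libraries and neighbouring stages, so Pearson's r is a description. Closest to Dcx were St8sia2 (r = 0.993), which encodes a polysialyltransferase that acts on the adhesion molecule NCAM, Celf3 (0.993), an RNA-binding protein gene, and Nrep (0.992). Stmn1 was most like Jpt1 (0.971), the calmodulin gene Calm2 (0.959) and Ttc9b (0.936). For Stmn2 they were Bend5 (0.990), Nnat (0.980) and Mllt11 (0.979), and for Map2 the spectrin gene Sptan1 (0.990), Apc (0.987), whose product binds microtubule ends, and Sbk1 (0.986). Among the 10 genes themselves the closest pair was Stmn2 and Stmn3 (r = 0.988) and the least alike Dclk2 and Stmn4 (r = 0.254).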

How the data were processed

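The authors deposited 1 gene by barcode matrix of UMI counts per library, not normalized and not filtered for cells, made with Cell Ranger (version 5.0.1 in the submitters' processing notes, 4 in the file header) on GRCm38. Chemistry and use of strand are not given in the sources used here. Barcodes with at least 3000 UMIs and at most 10% mitochondrial UMIs were kept. Erythroid cells (5% or more globin UMIs), microglia, vascular cells and oligodendrocyte precursors (5 or more marker UMIs) were left out, as were barcodes with the highest Scrublet scores (scanpy 1.11.5), at 0.8% per 1000 cells, because Scrublet's own threshold marked at most 0.0443% of barcodes. The score was the mean of standardised log UMIs after thinning to 3000 UMIs. UMIs were summed per library and stage or range, with 7360600 to 19684382 UMIs per range sum, and given as CPM. Tests used edgeR 4.0.16 (TMM, filterByExpr, quasi-likelihood test, Benjamini-Hochberg over all genes, called at 0.05) in R 4.3.3, and DESeq2 1.42.0 as an alternative. On simulated data with 12280 genes, the comparison of 2 libraries against 2 in the neuron range recovered 87% of changes of 1 and 99% of changes of 2 on the log2 scale, with 5.58% of calls false. The block design for neuron against middle range recovered 100% of both, with 6.10% of calls false. The simulated spread came from a fit with library as a block. It left out differences between libraries, which the comparison of 2 libraries against 2 faces. The 87% and 99% may therefore be too high for the real libraries, and changes below 1 were not simulated. Gene positions came from GENCODE M21, which held 99.8% of the identifiers. Named were the 10 genes, St18, up to 4 other regulators per direction and step with the largest called change, and the 3 genes most alike to Dcx, Stmn1, Stmn2 and Map2. The genes, lists and tests were chosen with earlier results of these data known, and the alternative of at least 1500 UMIs per cell after seeing the data. Intervals cover counting error only. Levels were not compared between genes. A second motif was searched in the promoter windows and is not reported here.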

Additional observations from a re-analysis of the deposited data

Results flagged for a closer look

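Barcodes with at least 1500 but fewer than 3000 UMIs, which entered only the alternative with that minimum, carried these genes above the 1.24 to 1.38 CPM that a count of 0 allows. The summed level of the 10 genes was 9826.2 CPM in 1077 neural barcodes of null replicate 1, 8883.4 CPM in 1173 of null replicate 2, 9057.2 CPM in 1058 of WT replicate 1 and 10214 CPM in 1061 of WT replicate 2. In the cells used it was 9694.7, 9096.1, 9262.5 and 9769.6 CPM. In empty droplets the same sum was 8786, 7816, 8310 and 8926 CPM.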

How the results depend on the processing

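Between 38 and 45 of the 45 pairs of genes kept their order under each alternative of axis, stages, cells or libraries, with Stmn1 or Dclk2 first and Mapt or Stmn4 last. The earliest midpoint moved to 24.4% with neuron markers only, 39.5% on the principal component, 20.3% with 20 stages, 26.8% with at least 6000 UMIs per cell and 23.4% with at least 1500. The latest moved to 76.6% with progenitor markers only, 85.8% with 20 stages and 84.9% without cells with pallial, LGE or CGE markers. Between genotypes, 1 of the 10 genes was called in the progenitor range with library totals, 2 without a filter and 2 by DESeq2. Over all genes it was 1041 of 13185, 915 of 20224 and 357 of 15367. In the middle range 2 of the 10 were called without a filter and 1 by DESeq2, beside 472 of 19738 and 188 of 14733 genes. In the neuron range DESeq2 called 1 of the 10, beside 272 of 15365 genes. Leaving out each library in turn gave 0 to 7, 0 to 9 and 0 to 8 calls in the 3 ranges, and 0 to 2 for the difference between ranges. For that difference 1 gene was called with library totals, without a filter, with doublets kept, with at least 6000 or 1500 UMIs and with progenitor stages 1 to 4, and 2 without cells of other regions. Over all genes these alternatives called from 85 of 13891 (library totals) to 204 of 22389 (no filter), with 185 of 13688 without cells of other regions.

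Some genotype changes turned in sign, none of them called in the main test. In the progenitor range leaving out a library gave -0.075 (without null replicate 2) to 0.15 for Dcx, -0.072 (without null replicate 2) to 0.34 for Map2, -0.46 to 0.082 (without WT replicate 2) for Mapt and -0.33 (without null replicate 1) to 0.44 for Stmn4. In the middle range Map2 ranged from -0.019 (without null replicate 2) to 0.39 and Stmn4 from -0.43 to 0.31 (without null replicate 2) in this way, and Mapt became 0.10 with at least 6000 UMIs. There Stmn4 became 0.12 with library totals, 0.0036 with doublets kept, 0.14 with at least 6000 UMIs and 0.016 with progenitor stages 1 to 4. In the neuron range Mapt became 0.041 with library totals and ranged from -0.31 to 0.13 with a library left out (above 0 without null replicate 2 and, at 0.035, without WT replicate 2), and Stmn4 from -0.58 to 0.070 (without null replicate 2). The cause was not tested. Stmn1, Stmn2 and Stmn3 stayed lower and Map1b, Dclk1 and Dclk2 higher in null in all 3 ranges under each alternative run for genotype (scaling, filter, DESeq2, a library left out, doublets, UMI minimum, other regions, stage limits). These alternatives reuse the same libraries, and the share of all genes that kept their sign was not counted. Other axes and subtraction of free RNA were not run for these genotype tests of level, though midpoints per library were taken on them.

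Over all genes, 4, 11 and 53 were called in the 3 ranges (2, 4 and 13 of them higher in null). With RLE factors it was 86, 38 and 99 (10, 5 and 18 higher), with library totals 1041, 216 and 338 (868, 143 and 253 higher), without a filter 915, 472 and 4, and by DESeq2 357, 188 and 272. With doublets kept it was 134, 3 and 25, with at least 6000 UMIs 171, 27 and 139, with at least 1500 UMIs 144, 29 and 3, without cells of other regions 180, 3 and 49. For the difference between ranges, 95 became 85 with library totals, 204 without a filter, 134 with doublets kept, 120 and 109 with at least 6000 and 1500 UMIs, 111 with progenitor stages 1 to 4, 185 without cells of other regions, and 11 to 252 with a library left out. Without either WT library 55 and 57, 49 and 39, and 157 and 46 genes were called.

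No paired analysis was possible because the labels carry no replicate numbers, and those used here only name the libraries of a genotype in accession order. With 2 libraries a genotype, a missed threshold does not show that a gene did not differ.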

Other observations

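The effect of the null allele on St18 itself differed between the neuron and the progenitor range by 0.63 on the log2 scale (SE 0.13, adjusted p = 0.0144, edgeR). The call was lost without null replicate 1 (0.55, adjusted p = 0.173), null replicate 2 (0.74, adjusted p = 0.253) or WT replicate 2 (0.45, adjusted p = 0.244) and with at least 6000 UMIs per cell (0.56, adjusted p = 0.166), and without WT replicate 1 the difference was 0.92 (adjusted p = 8.40e-06). In the ranges taken alone its log2 changes were -0.68 (adjusted p = 0.442), -0.25 (adjusted p = 0.767) and -0.015 (adjusted p = 0.986) from progenitor to neuron. Without null replicate 2 they were -1.69 (adjusted p = 5.41e-10), -1.17 (7.30e-23) and -0.91 (0.00245), and without null replicate 1 they were -0.055 (0.815), 0.33 (6.66e-04) and 0.56 (0.00852). The change in the progenitor range was also called without WT replicate 1 (-1.01, adjusted p = 0.0256) and without a filter on low counts (-0.68, adjusted p = 3.95e-04).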
